A study of Mus musculus with 4 samples.

Results

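The enzymes described here modify and crosslink collagen, and they were measured in mesenchymal stem cells (MSC), plastic-adherent stromal cells, from colon and bone marrow of C57BL/6 mice. They are the lysyl oxidases Lox, Loxl1, Loxl2, Loxl3 and Loxl4, the lysyl hydroxylases Plod1, Plod2 and Plod3, and the prolyl 4-hydroxylase alpha subunits P4ha1 and P4ha2. Members were all probe sets that the platform annotation pairs with exactly 1 of these 10 symbols, which gave 16 of 45037 probe sets for 9 of the 10 genes. The 2 probe sets that list Loxl2 carry 2 symbols each, so Loxl2 is not analysed here. The groups were 2 colonic MSC lines, isolated from flushed colon, and 2 bone marrow MSC lines, all of them cultures started by collagenase dissociation and plastic adherence, each on 1 Affymetrix mouse array. All lines were grown in a serum-containing low-glucose medium, and lysis fell in passages 5 to 10. The lines are called colonic line 1 and 2 and bone marrow line 1 and 2 after the replicate numbers in the labels, which call them biological replicates without saying whether the lines came from separate animals. The sources used here do not give the age or sex of the mice.

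Newly made procollagen chains are hydroxylated in the endoplasmic reticulum by iron- and oxygen-dependent enzymes that need ascorbate. Prolyl hydroxylation by the P4ha subunits, which work in a complex with the disulfide isomerase P4hb, makes the triple helix stable at body temperature, and lysyl hydroxylation by the Plod enzymes sets which crosslinks can form. After secretion, the copper enzymes of the lysyl oxidase family oxidise lysine and hydroxylysine side chains of collagen and elastin, from which the covalent crosslinks of the matrix grow. Several of these genes, among them Plod2, P4ha1, P4ha2 and Lox, are known targets of the hypoxia-inducible factor HIF.

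The arrays were alike in overall signal, with medians between 53.6 and 55.5 intensity units and upper quartiles between 608 and 655. Intensities are linear and have no fixed unit, so levels of different probe sets are not compared. The MSC markers Cd44 and Pdgfrb gave at least 4867 and 3377 on every array, whereas Thy1, another MSC marker, read 4516 and 9032 in colonic MSC and 32.8 and 22.04 in bone marrow MSC. The other MSC markers measured also varied between lines. In colonic and then bone marrow MSC, Vcam1 read 2281 and 266 against 2206 and 2535, and Nt5e 209 and 27.6 against 76.3 and 27.9. Eng read 330 and 1035 against 1323 and 445, and Pdgfra 492 and 743 against 1609 and 2493. Of the markers of other cell types, Ptprc (leukocytes), Pecam1 (endothelium) and Epcam (epithelium) lay at or below 28.6, 2.48 and 19.6 on all 4 arrays, but others on the same lists were bright. Among the macrophage markers Cd53 read 155 and 1333 in colonic MSC and 13.98 and 15.7 in bone marrow MSC, and Lyz2 read 150.1 and 590.5 in colonic MSC and 1589 and 31.7 in bone marrow MSC. Cd14 read between 573 and 963 on all arrays. The epithelial keratin Krt19 read 1890.3 and 105 in colonic MSC and 6223 and 5083 in bone marrow MSC.

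Colonic and bone marrow MSC did not differ detectably in any of these enzymes. Of the 16 probe sets, 15 passed the filter on low values, a mean intensity above 33.3 over the 4 arrays. With limma, 0 of these 15 passed an adjusted p of 0.05, where 0.0% of the 27022 probe sets tested passed. At an unadjusted p below 0.05 there were also 0 members, beside 1520 (5.63%) of all probe sets. The median tissue difference of the members, colonic minus bone marrow, was 0.06 on the log2 scale, against 0.00308 over all probe sets tested, and the median size of the difference was 0.29, against 0.23. Here and below the log2 scale is log2(intensity + 13.7), which understates differences of dim probe sets. The count over all probe sets was 70 without colonic line 1 and 96 without colonic line 2, while that of the members was 0 without any one line. With 2 lines a tissue the intervals were wide, so a p above the threshold does not show that the tissues are alike.

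**Figure D1:**
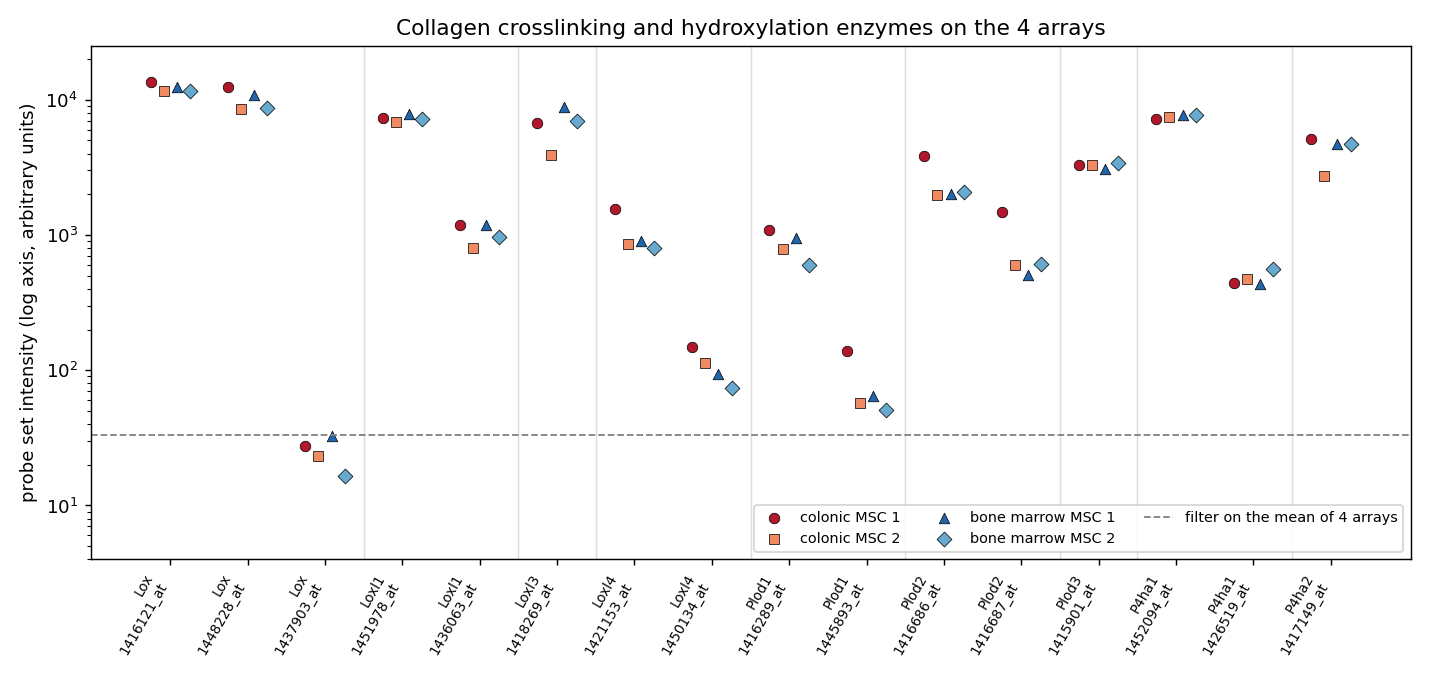
Intensity of each enzyme probe set on the 4 arrays (vertical log axis, arbitrary units), with 1 point for each line, colonic lines left of bone marrow lines. Most probe sets have overlapping tissues, and colonic line 1 stands above the other 3 for both Plod2 probe sets, at 3826 and 1478.

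Lox, the founding member of the lysyl oxidase family, was bright in every line. Its probe set 1416121_at read 13594 and 11644 in colonic MSC, against 12523 and 11680.2 in bone marrow MSC. The lowest and highest array differed by 1.17-fold, and the tissues overlapped. A second bright probe set, 1448228_at, read 12352 and 8606 in colonic MSC, against 10797 and 8639 in bone marrow MSC, again with overlap. In both, line 1 of each tissue was the higher of the pair. The log2 differences were 0.06 ± 0.10 and 0.09 ± 0.21 (SE), with 95% intervals from -0.22 to 0.33 and from -0.47 to 0.66. The third Lox probe set, 1437903_at, lay near the floor, at 27.5 and 23.0 in colonic MSC and 32.4 and 16.5 in bone marrow MSC, and did not pass the filter.

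Loxl1, which in mice is needed for elastic fibre assembly, also varied little on its brighter probe set. Probe set 1451978_at read 7369 and 6837 in colonic MSC, against 7895 and 7182 in bone marrow MSC. All 4 lines lay within 1.15-fold of each other, with a log2 difference of -0.09 ± 0.11 (SE). The other probe set, 1436063_at, was dimmer and more spread, at 1181 and 797 in colonic MSC and 1193 and 968 in bone marrow MSC, with a log2 difference of -0.15 ± 0.34 (SE). Elastin itself, Eln, a substrate of this enzyme, did not pass the filter on either of its 2 probe sets, the brighter of which read 31.3 and 33.4 in colonic MSC and 19.4 and 23.5 in bone marrow MSC.

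Loxl3 and Loxl4 leaned in opposite directions between the tissues, neither past the threshold. Loxl3, whose loss in mice disturbs palate and spine, read 6724 and 3893 in colonic MSC, against 8824 and 6932 in bone marrow MSC. The tissues did not overlap, although the nearest lines, colonic line 1 and bone marrow line 2, were only 0.04 apart on the log2 scale (-0.04, colonic minus bone marrow). The log2 difference was -0.61 ± 0.30 (SE, limma adjusted p = 0.972), with the lowest unadjusted p among the members, and it was -1.004 without colonic line 1 and -0.22 without colonic line 2. Loxl4 read 1558 and 854 on probe set 1421153_at in colonic MSC, against 905 and 795 in bone marrow MSC. There colonic line 2 fell between the bone marrow lines. Its dimmer probe set, 1450134_at, read 149.6 and 113 in colonic MSC, against 93.8 and 73.6 in bone marrow MSC, without overlap. The log2 differences of the brighter and the dimmer Loxl4 probe set were 0.44 ± 0.39 and 0.57 ± 0.30 (SE), with adjusted p values of 0.990 and 0.986 by limma. They were 0.0089 and 0.39 without colonic line 1, and 0.87 and 0.75 without colonic line 2.

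Plod2, the hydroxylase of the telopeptide lysines that direct hydroxylysine-type crosslinks, had the largest tissue difference of the member probe sets on its dimmer probe set. On both probe sets 1 line made most of the difference. By the brightest probe set of each gene, Loxl3 differed most, at -0.61. Probe set 1416686_at read 3826 and 1965 in colonic MSC, against 2000.3 and 2065 in bone marrow MSC. Probe set 1416687_at read 1478 and 603 in colonic MSC, against 509.8 and 612 in bone marrow MSC. On both, colonic line 1 stood far above 3 lines that lay close together, so the tissues overlapped. The log2 differences were 0.43 ± 0.37 and 0.74 ± 0.51 (SE), with 95% intervals from -0.53 to 1.39 and from -0.60 to 2.09. Without colonic line 1 they were -0.05 and 0.11, and without colonic line 2 they were 0.91 and 1.38.

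Plod1, the lysyl hydroxylase of the collagen helix, was also highest in colonic line 1 on both probe sets. Probe set 1416289_at read 1096 and 794 in colonic MSC, against 958 and 602 in bone marrow MSC. The dim probe set 1445893_at read 139 and 57.1 in colonic MSC, against 65.0 and 50.5 in bone marrow MSC. Line 1 was the higher one in both tissues, and the tissues overlapped on both probe sets, with log2 differences of 0.29 ± 0.38 and 0.55 ± 0.45 (SE). Without colonic line 1 these were 0.06 and -0.01. Plod3, which also transfers sugars to hydroxylysine, was flat, at 3294 and 3279.55 in colonic MSC and 3066 and 3421 in bone marrow MSC, with a log2 difference of 0.02 ± 0.17 (SE) and a 95% interval from -0.43 to 0.47.

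The alpha subunits of prolyl 4-hydroxylase were both bright. P4ha1, the main alpha subunit in most cells, read 7175 and 7442 on probe set 1452094_at in colonic MSC, against 7658 and 7720.2 in bone marrow MSC. All lines lay within 1.08-fold, and although the tissues did not overlap, the log2 difference was -0.07 ± 0.10 (SE). The dimmer P4ha1 probe set, 1426519_at, read 440.4 and 476 in colonic MSC, against 435 and 560.4 in bone marrow MSC. P4ha2, an alpha subunit prominent in cartilage and bone cells, read 5116 and 2744 in colonic MSC, against 4681 and 4701 in bone marrow MSC. The bone marrow lines were nearly equal, and the colonic lines lay on either side of them, so the log2 difference of -0.32 ± 0.32 (SE) was -0.77 without colonic line 1 and 0.12 without colonic line 2. The partner subunit P4hb read between 11807 and 12663 on all lines.

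Promoter sequences from RefSeq (GRCm38.p6, 250 bases before to 50 after a transcription start) were used for 5 of the 10 members and are shown for this pair, since the colonic lines differed in P4ha2 by 0.90 on the log2 scale and in P4ha1 by -0.05 (line 1 minus line 2). The motifs searched were ACGTG and GCGTG, the letters of the HIF binding core, on both strands, with a match counted on each strand where a pair overlaps as a palindrome. Each line gives the 150 bases before the first annotated base of the gene, plus strand, 5′ to 3′, with matches to either motif on either strand in capitals. For P4ha2 that base is also the table's transcription start, while for P4ha1 it lies 99 bases before the table's start, so the stretches are not at like distances from it.
P4ha2 (chr11:54100774-54100923): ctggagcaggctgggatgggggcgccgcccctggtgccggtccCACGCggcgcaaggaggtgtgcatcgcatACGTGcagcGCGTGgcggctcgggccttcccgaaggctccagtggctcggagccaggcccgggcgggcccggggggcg
P4ha1 (chr10:59323047-59323196): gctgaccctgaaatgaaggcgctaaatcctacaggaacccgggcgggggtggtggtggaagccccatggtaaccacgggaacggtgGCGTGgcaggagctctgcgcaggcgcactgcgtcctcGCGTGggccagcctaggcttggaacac
The P4ha2 stretch held 3 matches and the P4ha1 stretch 2, so both enzymes had them. In the whole 300-base windows there were 4 matches for P4ha2 and for Plod3, 3 for P4ha1, 2 for Plod1 and 1 for Loxl4. At least 1 match was present in 43.8% of the 32851 windows of the table and 3 or more in 8.93%. A match is a description of letters and shows no binding.

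**Figure D2:**
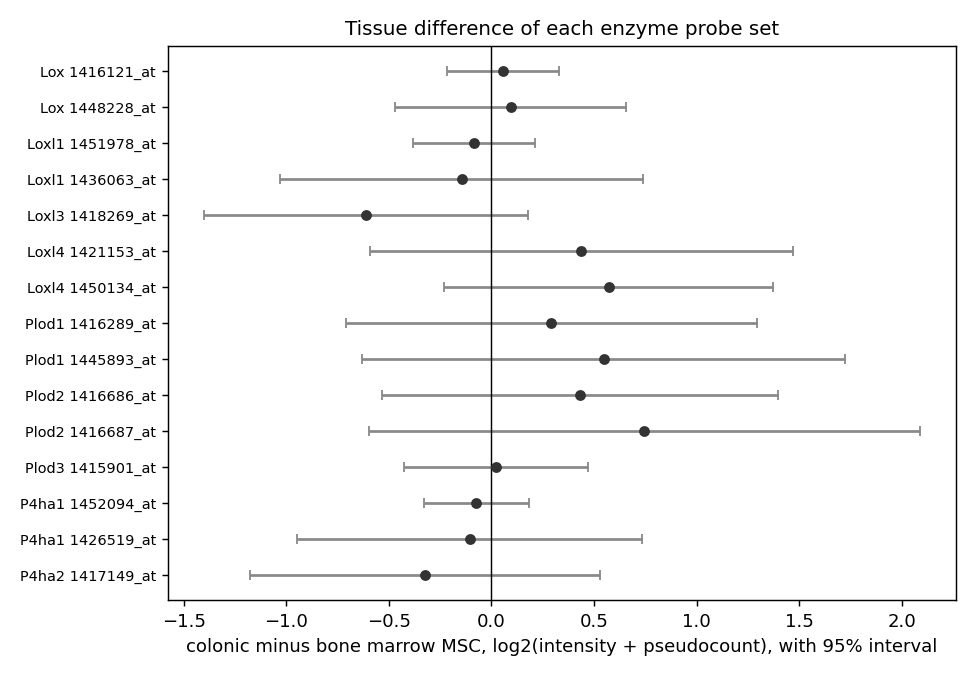
Colonic minus bone marrow difference of the 15 enzyme probe sets past the filter (horizontal axis, log2 scale), as points with the 95% interval of the limma fit. Every interval crosses 0, and the widest belongs to Plod2 1416687_at, from -0.60 to 2.09.

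Counted over the families, 3 of the 15 probe sets had no overlap between tissues, 1 higher (Loxl4 1450134_at) and 2 lower (Loxl3 and P4ha1 1452094_at) in colonic MSC. That is 20.0%, while 33.4% of all probe sets tested had none. None of the tissue differences was past the threshold. By sign, 5 of 5 lysyl hydroxylase, 4 of 7 lysyl oxidase and 0 of 3 prolyl hydroxylase probe sets were positive. Over all probe sets tested, 13606 of 27022 were positive. Probe sets of the same gene are not separate observations. Without colonic line 1, Plod2 1416686_at was -0.05 and Plod1 1445893_at -0.01, while the other lysyl hydroxylase probe sets stayed positive.

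A constant scaling factor of an array largely cancels in ratios of enzymes on that array, apart from the pseudocount. Other kinds of scaling need not cancel. For the 36 pairs of the 9 genes, each by its brightest probe set, the log2 ratio was centred on its mean over the 4 arrays. The tissues overlapped in 24 pairs and did not in 12, a share near the 33.4% of all single probe sets without overlap. The pairs share genes, so they are not separate observations. The pairs given here were chosen after the values were seen. The widest gap between tissues was that of Loxl4 over Loxl3, at 0.56 and 0.49 in colonic MSC and -0.61 and -0.44 in bone marrow MSC. Next came Plod2 over Loxl3, at 0.61 and 0.44 in colonic MSC and -0.72 and -0.32 in bone marrow MSC. The third, the ratio of Plod2 to P4ha2, was 0.41 and 0.35 in colonic MSC and -0.40 and -0.36 in bone marrow MSC. Colonic line 1 was above colonic line 2 in both genes by a like amount (0.96 and 0.90), so in the ratio the lines of a tissue lay close together. These gaps were not tested, since the exact permutation test of 2 lines against 2 cannot give a p below 0.333.

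The 2 colonic lines differed over the members by a median size of 0.52 on the log2 scale, against 0.26 between the bone marrow lines. Over all probe sets tested these sizes were 0.35 and 0.31. Colonic line 1 exceeded colonic line 2 by at least 0.5 on the log2 scale, a limit chosen after the values were seen, in 8 of 15 probe sets (53.3%), where 16.0% of all probe sets did so. In 0 of 15 was it lower by that much, while 19.7% of all probe sets were. With the brightest probe set of each gene alone the count was 4 of 9, where 17.7% of all genes were higher by that much. The 8 were both Plod2 probe sets (1.27 and 0.96), Plod1 1445893_at (1.11), P4ha2 (0.90), Loxl4 1421153_at (0.86), Loxl3 (0.79), Loxl1 1436063_at (0.56) and Lox 1448228_at (0.52). Differences were small for Plod3 (0.01), P4ha1 (-0.05 and -0.11) and Loxl1 1451978_at (0.11). The median over the members was 0.52, against -0.03 over all probe sets tested. Colonic line 1 was the highest of the 4 lines in 9 of 15 probe sets, while it was so in 28.4% of all probe sets, and colonic line 2 was the highest in 0. Between the bone marrow lines 1 of 15 probe sets, Plod1 1416289_at (0.66, line 1 minus line 2), differed by at least 0.5 either way, against 31.0% of all probe sets. Each line is 1 array, so none of these differences between lines has a test, and several members share a gene.

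**Figure D3:**
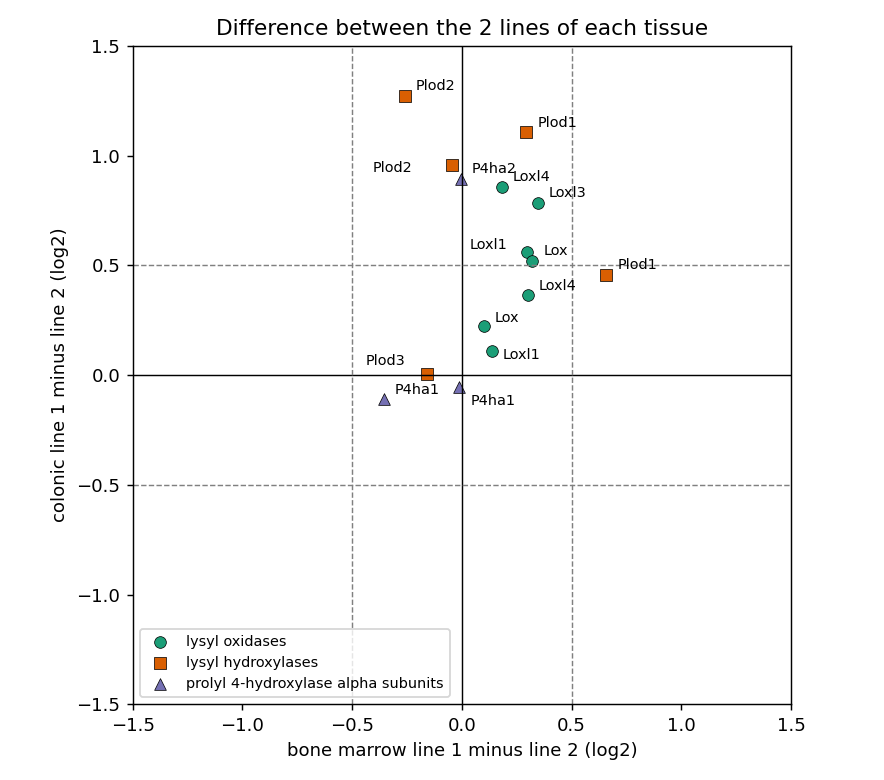
Each point is an enzyme probe set past the filter, placed by the log2 difference of the bone marrow lines (horizontal) and of the colonic lines (vertical), line 1 minus line 2 in each, with dashed lines at 0.5 and -0.5. The points spread upward to 1.27 for Plod2, while 1 point, Plod1, passes 0.5 along the horizontal axis.

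Other transcripts were also higher in colonic line 1 than in colonic line 2, and their part in the enzyme values was not tested. Smooth muscle markers, 6 of 6 past the filter, summed to 55944 and 49188 in colonic MSC and 44860 and 30027.5 in bone marrow MSC. Among them Des read 2379 and Myh11 1123 in colonic line 1, and at most 52.4 and 43.4 in the other lines. Epithelial markers, 5 of 8 past the filter, summed to 3039 and 264 in colonic MSC and 6402 and 5332 in bone marrow MSC. Most of each sum but that of colonic line 2 was Krt19, given above. Krt20 read 889 in colonic line 1 and at most 29.4 elsewhere, and Epcam, Vil1 and Cdx2 did not exceed 19.6, 25.6 and 14.99 on any array. Glial and neuronal markers, 1 of 5 past the filter, summed to 895 and 169 in colonic MSC and 199 and 167 in bone marrow MSC, most of it Uchl1 (814) in colonic line 1. Endothelial markers, 3 of 6 past the filter, summed to 251 and 185 in colonic MSC and 147 and 108 in bone marrow MSC. Unlike the smooth muscle, glial and neuronal, and endothelial sums, the epithelial sum was not highest in colonic line 1. Nor were the sums of the remaining lists. Of these, the osteoblast sum alone was higher in colonic line 1 than in colonic line 2. MSC markers (7 of 7 past the filter) summed to 19738 and 21460 in colonic MSC against 16332 and 15076 in bone marrow MSC, macrophage markers (6 of 8) to 1791 and 2893 against 2846 and 1098, osteoblast markers (3 of 3) to 312 and 101 against 1691 and 199, and adipocyte markers (3 of 3) to 628 and 6665 against 5307 and 7346. In bulk RNA, fewer cells of a type and less RNA per cell cannot be told apart.

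Because oxygen acts on both the activity and the transcription of these enzymes, 14 genes known to respond to hypoxia were set beside them. Between tissues, 0 of their 35 probe sets passed an adjusted p of 0.05 with limma, and 2 were higher and 0 lower in colonic MSC at an unadjusted p below 0.05, a share of 5.71% beside 5.63% of all probe sets. The genes with the lowest p were Vegfa, the angiogenic factor, at 5020.2 and 4239 in colonic MSC against 2665 and 3448 in bone marrow MSC, and Egln3, a HIF prolyl hydroxylase, at 1695 and 1847 against 1138 and 678. Pdk1, a kinase that curbs pyruvate oxidation, had 3282 and 2346 in colonic MSC against 3859 and 6779 in bone marrow MSC, and Ankrd37 had 1302 and 341 in colonic MSC against 144 and 356 in bone marrow MSC. Adjusted p values of these genes lay between 0.841 and 0.986. The list held members of both leanings, with a median tissue difference of 0.03.

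Between the colonic lines, 27 of the 35 probe sets of the hypoxia list were higher in line 1, beside 12725 of 27022 over all probe sets tested. Several of the 35 share a gene. By at least 0.5, 13 were higher and 5 lower in colonic line 1, against 16.0% and 19.7% of all probe sets. The median was 0.24. With the brightest probe set of each gene, 6 of 14 were higher and 1 lower by that much. That is 42.9% higher, against 17.7% of all genes, while 2188 of all 12930 genes were lower. The median over these genes was 0.45, beside 0.46 over the member genes. Ankrd37 was higher by 1.89, the glucose transporter Slc2a1 by 1.16 to 1.64 on its 3 probe sets and the disulfide oxidase Ero1a by 0.52 to 0.90, while the 5 lower ones were all probe sets of Ndrg1, at -0.99 to -1.37. Slc2a1, Ero1a and Ndrg1 were chosen after their values were seen. Slc2a1 read 8175, in colonic line 1, and 3662, in colonic line 2, on its brightest probe set, against 3535 and 6034 in bone marrow MSC, so bone marrow line 2 was high as well. Ero1a, on its brightest probe set, read 9452 and 6567 in colonic MSC and 6405 and 6338 in bone marrow MSC, with colonic line 1 the highest. Between the bone marrow lines, 4 of the 35 probe sets were higher and 10 lower in line 1 by at least 0.5, with a median of -0.19. Over all probe sets tested, 4798 of 27022 were higher and 3580 lower by that much. Of the 15 member probe sets 1 was higher and 0 lower, with a median of 0.14. A part of oxygen in the enzyme values was not tested.

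**Figure D4:**
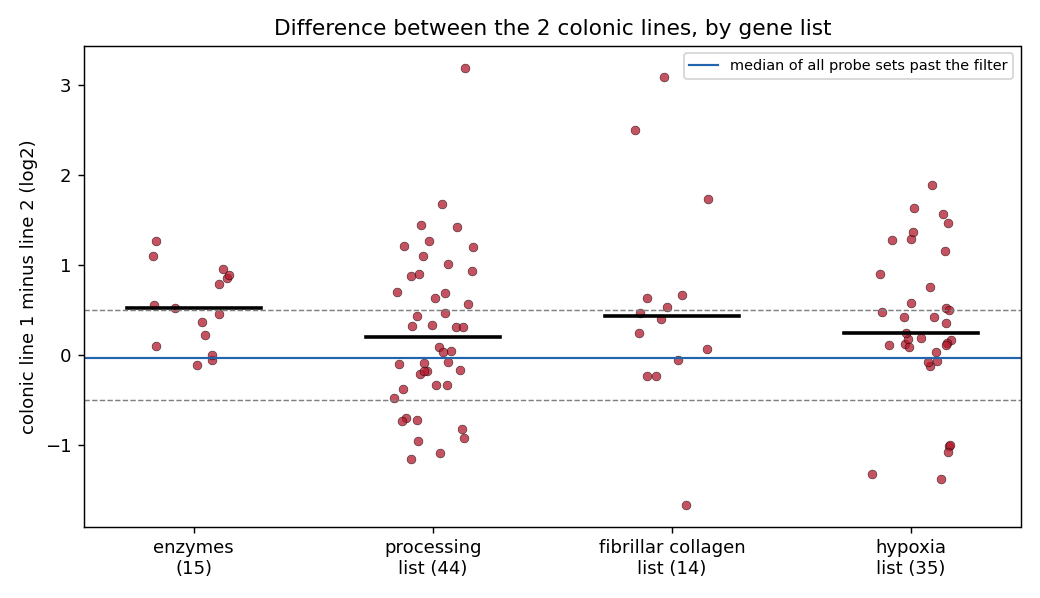
Colonic line 1 minus colonic line 2 (vertical axis, log2) for each probe set past the filter in 4 lists, with black bars at the list medians, dashed lines at 0.5 and -0.5 and a blue line at the median of all probe sets. Medians are 0.52 for the enzymes, 0.44 for the fibrillar collagens, 0.24 for the hypoxia list and 0.20 for the processing list. The enzymes have no point below -0.5, while each of the other lists has at least 1.

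The fibrillar collagens on which these enzymes act showed small tissue differences, with a median size of 0.06. None of the 14 probe sets past the filter had tissues without overlap, 0 passed an adjusted p of 0.05 or an unadjusted p below 0.05 with limma, and the median tissue difference was -0.004. Col1a2, a chain of collagen I, read 15311 and 15827 in colonic MSC against 15706 and 14901 in bone marrow MSC, and Col5a2, a chain of collagen V, read 14231 and 13591 in colonic MSC against 13718 and 12905 in bone marrow MSC. Col5a1 lay at 10607 and 8011 in colonic MSC and 10496 and 8548 in bone marrow MSC. Col11a1, a chain of the cartilage collagen XI, split within each tissue instead, at 3035 and 523 in colonic MSC and 2413 and 499 in bone marrow MSC, with line 1 high in both. Of the 14 probe sets, 6 were higher and 1 lower in colonic line 1 than in colonic line 2 by at least 0.5. That is 42.9% higher, beside 16.0% of all probe sets higher and 19.7% lower. With the brightest probe set of each gene, 2 of 6 were higher and 0 lower, beside 2294 and 2188 of all 12930 genes.

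Of the other genes that process collagen and elastin, 25 of the 29 listed had a probe set and 22 passed the filter, with 44 probe sets. In this list 0 probe sets passed an adjusted p of 0.05 with limma. At an unadjusted p below 0.05, 7 were higher and 0 lower in colonic MSC, which is 15.9% beside 5.63% of all probe sets. By the brightest probe set of each gene, 2 of 22 genes had such a p, which is 9.09% beside 6.56% of all genes. The tissues did not overlap in 21 of the 44 probe sets, 15 higher and 6 lower, which is 47.7% beside 33.4% of all probe sets. Its median tissue difference was 0.17, against 0.00308 over all probe sets. Tll1, a tolloid-like proteinase that cleaves procollagen and activates Lox, read 1801 and 770.1 in colonic MSC, against 63.5 and 21.4 in bone marrow MSC. Both colonic lines were above both bone marrow lines, with a log2 difference of 4.52 ± 0.62 (SE, limma adjusted p = 0.197). Tgm2, the transglutaminase that forms another kind of matrix crosslink, read 14020 and 11295 in colonic MSC on its brightest probe set, against 5436 and 1882 in bone marrow MSC. Its log2 difference was 1.97 ± 0.52 (SE, limma adjusted p = 0.684), and it was 1.21 without bone marrow line 2 and 2.73 without bone marrow line 1. The other 4 Tgm2 probe sets past the filter differed by 2.02 to 3.39, and 5 of the 7 probe sets with an unadjusted p below 0.05 were of this gene. One probe set of Ppib, the cyclophilin of the prolyl 3-hydroxylation complex, passed without colonic line 1 (log2 difference 1.23, limma adjusted p = 0.0458), through a reading of 20307.5 in colonic line 2 beside 9145 in colonic line 1 and 8642 and 8613 in bone marrow MSC. The other probe set of Ppib read between 10549 and 10838 on all lines.

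Procollagen C-proteinase enhancers leaned the other way. Pcolce2 read 304 and 21.1 in colonic MSC, against 474 and 6346 in bone marrow MSC. The log2 difference of -4.07 was -2.21 without bone marrow line 2 and -2.47 without colonic line 2. Pcolce, its better known relative, read 6943 and 8003 in colonic MSC against 10597 and 8468 in bone marrow MSC. P3h2, a prolyl 3-hydroxylase, read 21.6 and 14.3 in colonic MSC against 44.1 and 517 in bone marrow MSC, so bone marrow line 2 was the one bright line, and the log2 difference of -2.48 was -0.88 without it. Tmem38b, the endoplasmic reticulum potassium channel needed for collagen modification, read 1393 and 572 in colonic MSC against 465 and 387 in bone marrow MSC, with a log2 difference of 1.05 that was 0.42 without colonic line 1. Adjusted p values of these 4 genes were between 0.906 and 0.970 by limma. Of the 44 probe sets, 16 were higher and 8 lower in colonic line 1 than in colonic line 2 by at least 0.5. That is 36.4% higher, beside 16.0% of all probe sets higher and 19.7% lower. With the brightest probe set of each gene, 7 of 22 were higher and 5 lower, beside 2294 and 2188 of all 12930 genes. The third alpha subunit, P4ha3, was among the higher ones, at 2552 and 927 in colonic MSC and 1050.01 and 786 in bone marrow MSC, and was chosen after its values were seen.

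**Figure D5:**
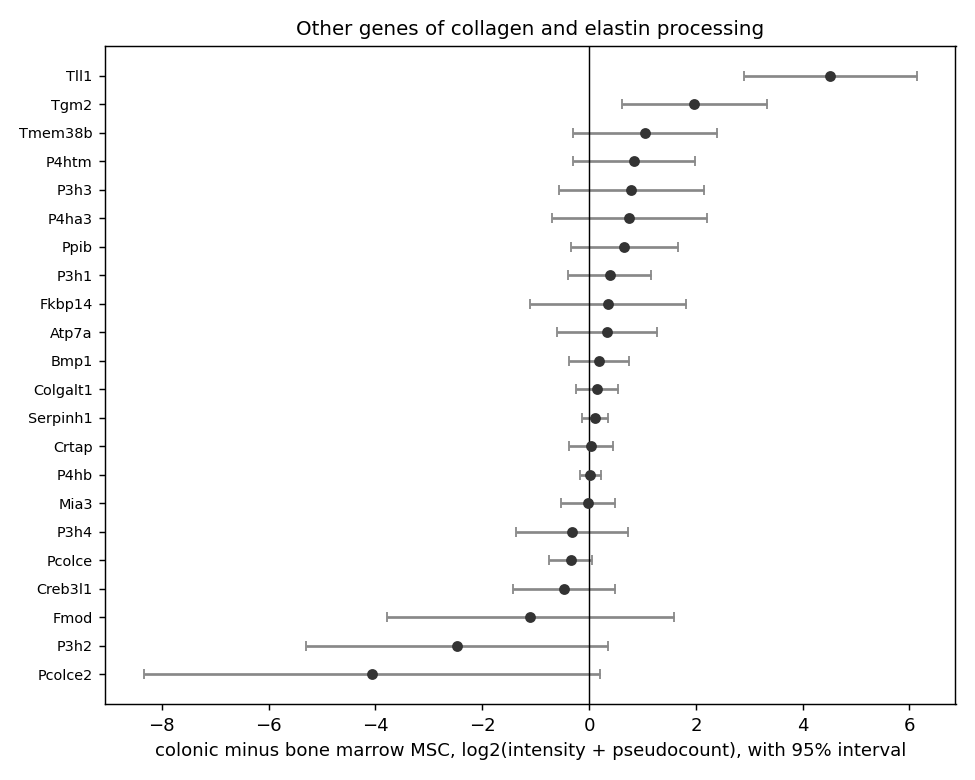
Colonic minus bone marrow difference of the 22 other collagen and elastin processing genes past the filter, each by its brightest probe set (horizontal axis, log2 scale), with the 95% interval of the limma fit. Tll1, at 4.52, and Tgm2, at 1.97, have intervals above 0, and Pcolce2, at -4.07, has the widest.

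For the member probe set with the largest tissue difference, Plod2 1416687_at, the genes most alike in pattern over the 4 arrays were Amhr2, Slc25a15 and 1110008P14Rik. Likeness was the Euclidean distance between log2 values centred on each probe set's mean, and the distances were 0.08, 0.09 and 0.09. Slc25a15, a mitochondrial ornithine carrier, read 3048 and 1165 in colonic MSC and 1045 and 1193 in bone marrow MSC. The dim probe set of Amhr2, the receptor for anti-Müllerian hormone, read 78.9 and 25.2 in colonic MSC and 18.6 and 27.7 in bone marrow MSC, and 1110008P14Rik read 1519 and 616 in colonic MSC and 559 and 666 in bone marrow MSC. With 4 arrays and 27022 probe sets, close matches are easily found.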

How the data were processed

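The authors deposited 1 table of probe set intensities on a linear scale for 4 arrays, as judged from the values, which have decimals and are never below 0. RNA was amplified and biotin-labelled, per the labels' protocols. No source used here names the summary method, background correction or scaling. The array medians lay within 0.04 on the log2 scale, so the deposited scaling was kept. No detection calls were used.

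The 64 array controls were left out. Of the other probe sets, 34945 had 1 symbol in the platform annotation, 932 several and 9160 none, and only those with 1 were named. Before log2, a pseudocount of 13.7 was added to each intensity (0.25 times the table's median). Probe sets with a mean above the 40th percentile (33.3) were kept, so a gene bright in 1 tissue could pass through it alone. These 27022 were fitted with limma 3.58.1 (R 4.3.3), lmFit and eBayes with an intensity trend, with 1 coefficient for tissue, signed so that colonic is above when positive. Tests were two-sided and adjusted over all of them by Benjamini and Hochberg. Residual degrees of freedom were 2, and eBayes added 2.69. Each p-value sets the tissue difference against the spread between lines of a tissue, as moderated by eBayes over all probe sets. Whether the lines came from separate animals is not stated, and 4 arrays limit the precision.

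Members and lists were chosen with earlier results of these data known. The text names every member probe set, the 6 genes with the lowest p of the processing list, the 4 of the collagen and hypoxia lists, and others where it says so. Ero1a was matched through its older symbol Ero1l. Fkbp10, Adamts2, Adamts14 and Mesdc2 were not analysed here, and Colgalt2, Tll2 and Adamts3 did not pass the filter. The alternatives changed the normalization (quantile, median centring), the pseudocount (1 or the median), the filter (none or the 60th percentile), the probe sets per gene (brightest or mean), eBayes (no trend, robust), the threshold (0.1), the model (replicate block) and the arrays (each left out). Sequences came from RefSeq's promoter table.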

Additional observations from a re-analysis of the deposited data

How the results depend on the processing

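The count of member probe sets past the threshold was 0 under every alternative run, and so was that of the processing list, other than 1 without colonic line 1 (leave-one-out range 0 to 1). Over all probe sets the count of 0 was 12 with the 60th percentile filter, 54 at an adjusted p below 0.1, and 0 to 96 with an array left out. With the replicate block it was 0. Deviations from the tissue means of arrays with the same number correlated with r = 0.14 over probe sets, which with 2 pairs does not show that the numbers pair the arrays, and the block changed no call.

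Member differences kept their sign in all 151 values under the other alternatives, and 11 of 60 values turned with an array left out. Many of the 151 could not turn. The filters, the brightest probe set, the eBayes settings and the replicate block leave the difference itself unchanged. The ranges with an array left out were -0.055 to 0.17 and -0.17 to 0.35 for Lox 1416121_at and 1448228_at, -0.43 to 0.13 for Loxl1 1436063_at, -0.28 to 0.070 for P4ha1 1426519_at, -0.77 to 0.12 for P4ha2, -0.037 to 0.62 and -0.0055 to 1.10 for Plod1 1416289_at and 1445893_at, -0.049 to 0.91 for Plod2 1416686_at and -0.058 to 0.10 for Plod3. Among the collagens, Col1a2 (0.03) was -0.044 with quantile normalization and -0.17 with the mean of probe sets, Col5a1 (-0.04) was 0.032 with the mean of probe sets, and the ranges with an array left out were -0.013 to 0.063 for Col1a2, -0.24 to 0.16 for Col5a1 and -1.06 to 1.45 for Col11a1. The cause was not tested. Member probe sets higher in colonic line 1 than in colonic line 2 numbered 7 or 8 under the other normalizations, pseudocounts and filters, alternatives added after seeing the data, and 4 of 9 with 1 probe set per gene, where 17.7% of all genes were.

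The pseudocount shrinks differences more in dim probe sets past the filter, such as Loxl4 1450134_at and Plod1 1445893_at, than in bright ones. Their differences of 0.57 and 0.55 were 0.64 and 0.63 with a pseudocount of 1.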
